A study of Mus musculus with 4 samples.

Results

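Basic fibroblast growth factor (bFGF, the product of Fgf2) was the only stated difference between the cultures compared here, which were marrow mesenchymal stem cells (MSC) of C57BL/6 mice. The unit described is the log2 difference of a gene's level, MSC with bFGF minus MSC without bFGF, and the genes described are those outside a leukocyte panel with a usable level on both arrays. A gene was a member if its level lay above the floor, the median of an array's probe sets with 1 gene symbol, on both MSC arrays (floors of 6.29 without and 6.32 with bFGF) and if it was absent from a textbook panel of 710 leukocyte symbols. By this rule 9172 of 19938 measured genes were members (46.0%), and 129 further genes above both floors belonged to the panel. The panel was chosen with earlier results of these data known. It is also not complete: Emilin2, 1.46 higher with bFGF, is a member and also 1 of the 28 macrophage markers used below. The word non-leukocyte below therefore means only absent from this panel, and members can still be genes that leukocytes express. A level or difference below is always on the log2 scale, so a difference of 1 is 2-fold.

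The series holds 4 arrays, 1 for each group, of a whole-transcript mouse gene array. MSC came from femurs and tibiae, were selected by adherence to plastic for 5 days before the medium was changed, and grew in Coon's modified F12 with 10% fetal calf serum; the medium of 1 culture also held bFGF at 1 ng/ml. Cells passed at about 85% confluence, and plastic adherence alone does not remove marrow macrophages, so each culture may be a mixture whose makeup the labels do not give. The controls, also C57BL/6, were embryonic stem cells and osteoblasts released by enzymes from the skull bones of newborn mice. No label gives an age for the marrow donors, how many animals were pooled or whether both MSC cultures shared donors. With 1 array a group there is no replicate error, and every difference below compares 2 arrays and carries no p-value.

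FGF ligands bind receptor tyrosine kinases together with heparan sulfate chains on the cell surface, and the receptors drive the RAS-ERK cascade through docking proteins. ERK activity switches on immediate early genes and, with them, its own inhibitors such as the Sprouty proteins and the dual specificity phosphatases. In marrow stromal culture bFGF is known as a mitogen that is added to extend growth.

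The labels were set against marker genes. Macrophage markers were much higher with bFGF: 24 of 28 stood above the floor with bFGF and 15 without, levels ran from 4.29 to 11.16 with bFGF and from 3.49 to 8.38 without, and their median was 9.25 against 6.54. Mrc1, Cd163, Ms4a7 and Clec7a stayed under the floor on both MSC arrays. In osteoblasts 26 of the 28 macrophage markers stood above the floor (median 10.58), and in embryonic stem cells 19 (median 7.16, with the lysozyme gene Lyz2 at 11.14). Markers of neutrophils and mast cells (19), lymphocytes (15) and endothelium (16) had 0 genes above the floor on both MSC arrays. Of 27 fibroblast and MSC markers 21 were above both floors, among them Cd44 (8.51 without, 8.87 with bFGF) and Vim (12.57 and 12.30), whereas Thy1, Lepr and Cxcl12 were under the floor on both and Nt5e and Eng only without bFGF. The osteoblast array had 3 of 13 osteoblast markers above its floor of 6.46: Col1a1 (12.60), Dlx5 (7.49) and Pth1r (6.75). Alpl (6.03), Sp7 (5.36) and Ibsp (4.53) were among those under it. The embryonic stem cell array carried the pluripotency genes Pou5f1 (10.63), Nanog (9.24), Tdgf1 (11.29), Dppa5a (10.14), Sox2 (8.79) and Utf1 (8.59). Zfp42 (6.02) and Esrrb (6.40), also pluripotency genes, lay under its floor of 6.46. The same array carried Acta2 (11.91) and Col1a1 (10.92), genes of fibroblasts and smooth muscle. In such bulk samples fewer cells of a type and less RNA per cell cannot be told apart, and the part of macrophage transcripts in the differences below was not tested.

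Most non-leukocyte genes stood at nearly the same level on both MSC arrays. Of the 9172 members 8429 (91.9%) differed by less than 0.5 and 6358 (69.3%) by less than 0.25, with a median of -0.01 and 4497 (49.0%) above 0. The central 95% of members lay between -0.54 and 0.68. Those past 2-fold were mostly higher with bFGF: 103 members (1.12%) were 2-fold or more higher and 20 (0.218%) lower. Over all 9301 genes above both floors, panel included, the shares were 1.74% higher and 0.215% lower. At 1.5-fold, a log2 difference of 0.58, 336 members (3.66%) were higher and 182 (1.98%) lower. The shares of all genes above both floors were 4.37% and 1.97%. The excess of higher members at 1.5-fold depended on the processing. It nearly vanished when quantile normalization was repeated, and with no floor it was reversed, at 941 higher and 1438 lower. The 129 panel genes had 59 at 2-fold higher, 0 lower and a median of 0.79. A difference of 4-fold was reached by 18 members upward and by a single gene downward, Il33.

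**Figure D1:**
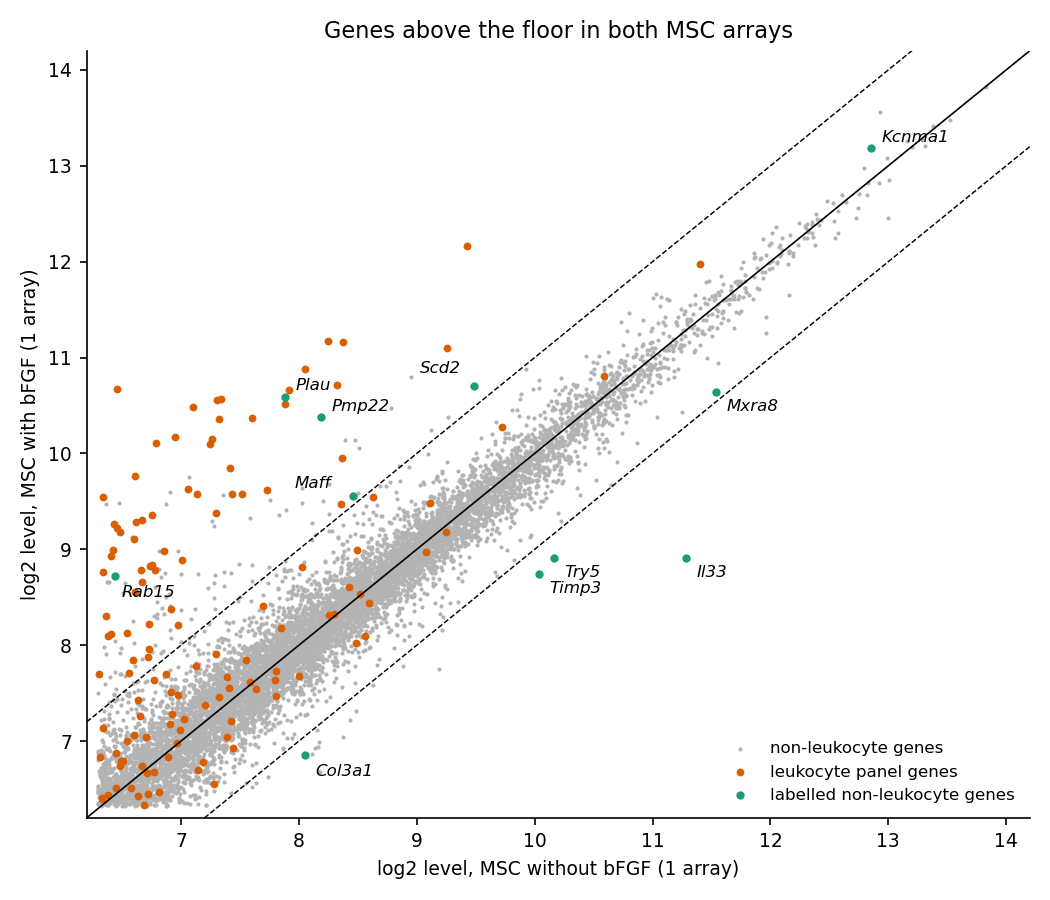
Log2 level of each gene above the floor on both MSC arrays, without bFGF on the horizontal axis and with bFGF on the vertical axis, 1 array each. Grey points are the 9172 non-leukocyte genes, orange points the 129 leukocyte panel genes, green points labelled non-leukocyte genes; the solid line marks equal levels and the dashed lines 2-fold. Grey points hug the line of equal levels, the 103 beyond the upper dashed line outnumber the 20 beyond the lower, and Il33 stands apart at 11.28 without and 8.91 with bFGF.

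A pair of technical yardsticks gives the scale of measurement noise. For 550 member genes with several probe sets above the floor, the difference had an SD of 0.154 between probe sets of the same gene, with a largest gap of 1.00. Of 1209 olfactory and vomeronasal receptor genes, which these cells should not use, 8 lay above both floors and their differences ran from -0.46 to 0.25. Neither yardstick holds variation between cultures. Fold limits also cut through close neighbours. Rbl1, a pocket protein of the cell cycle, was just inside (6.52 and 7.52) and the cytokine receptor chain Il10rb just outside (7.89 and 8.88, a difference rounding to 1.00). On the lower side Rapgef3 was just inside at -1.04 and Tpcn1 just outside at -0.99. At the floor, the ERK inhibitor Spry1 was just inside (6.29 and 6.34) and the Wnt receptor Fzd3 just outside (6.29 and 6.80).

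The largest differences upward included several secreted and cell-surface proteins. Properdin (Cfp), the stabiliser of the alternative complement convertase, stood at 6.36 without and 9.47 with bFGF, 3.11 higher. Adam8, a cell-surface metalloprotease, was at 6.48 and 9.49, 3.01 higher. The urokinase gene Plau, whose protease activates plasminogen around migrating cells, was at 7.88 without and 10.59 with bFGF, 2.71 higher. For Plau the level with bFGF was also above osteoblasts (10.46) and embryonic stem cells (9.16), whereas Cfp and Adam8 were highest in osteoblasts (9.88 and 10.73). The matrix adhesion protein Tgfbi differed by 2.68 (7.07 and 9.75), the iron carrier transferrin, Trf, by 2.55 (6.58 and 9.13) and the pentraxin Ptx3 by 2.21 (7.36 and 9.57). Pdgfb, a mitogen of mesenchymal cells, was at 6.37 without and 8.66 with bFGF, 2.29 higher and above both controls (7.63 and 7.69). The chemokine Ccl2, an attractant of monocytes, was 2.18 higher (6.81 and 8.99).

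Also among the 20 largest differences upward were the lysosomal membrane gene Tm6sf1 (2.69), the brain-type creatine kinase Ckb (2.60), the peripheral myelin protein Pmp22 (2.19), the cholesterol exporter Abcg1 (2.13), the syndecan Sdc3 (2.04), the Golgi mannosidase Man1a (2.03), the focal adhesion kinase relative Ptk2b (2.00), the kinase Cdk18 (1.98) and galectin-3, Lgals3 (1.97). Ckb was low only without bFGF, at 6.87 against 9.48 with bFGF, 9.89 in embryonic stem cells and 10.76 in osteoblasts. Pmp22 had the same shape, at 8.19 without bFGF against 10.38, 10.29 and 10.86 in that order. Pclaf, a partner of the replication clamp PCNA, was at 6.38 without and 8.66 with bFGF, and highest in embryonic stem cells (10.11). Many of these genes are also made by macrophages, whose markers had a median difference of 2.76 over the 15 above both floors.

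How the members high with bFGF stood in the control arrays was also counted. Osteoblasts exceeded embryonic stem cells 2-fold or more for 57 of the 103 (55.3%), against 796 of all 9172 members (8.68%) and 94 of the 129 panel genes (72.9%). For the 20 members 2-fold lower the count was 5 (25.0%). For 75 of the 103 the MSC array without bFGF was the lowest of the 4 arrays, and for 33 the array with bFGF was the highest. Median levels of the 103 were 6.90 without and 8.65 with bFGF, 9.05 for osteoblasts and 7.81 for embryonic stem cells. Since the 103 were chosen for a lower level without bFGF, these orders follow in part from the choice. Of the 103, 86 lay under the 75th percentile of the array without bFGF. Leaving out every gene with such an osteoblast excess left 46 higher of 8376 members. The excess is not a measure of macrophages. Of 27 measured fibroblast and MSC markers 15 had it, beside 26 of 28 macrophage markers. What lies behind it was not tested.

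**Figure D2:**
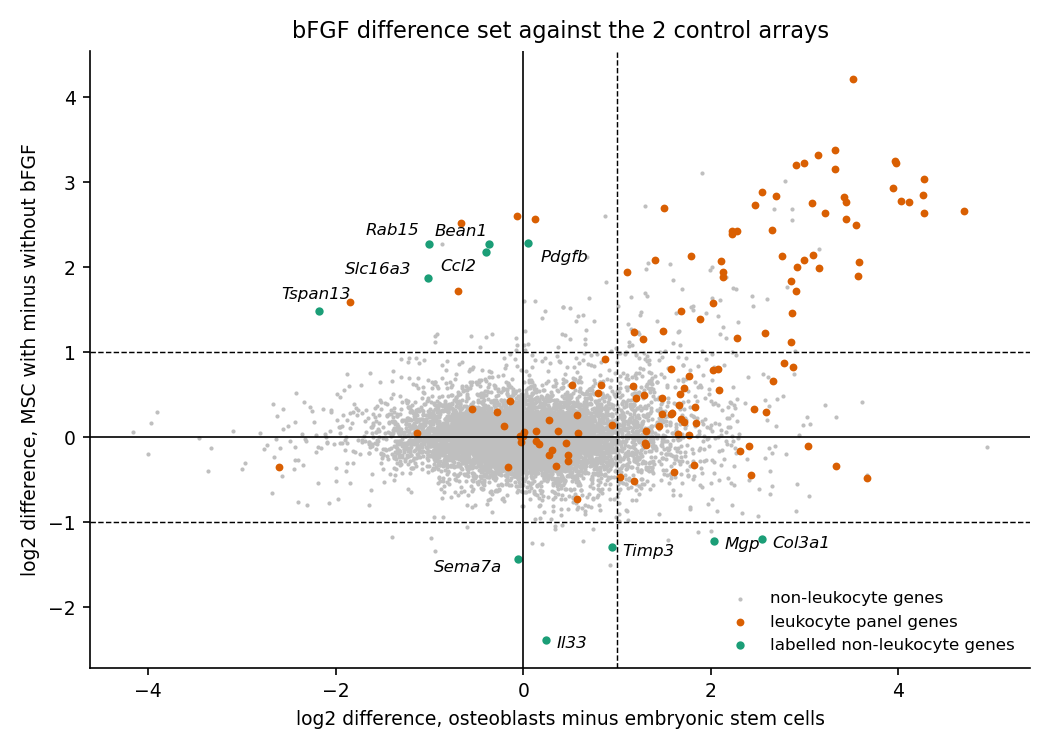
Log2 difference of MSC with minus without bFGF (vertical axis) against osteoblasts minus embryonic stem cells (horizontal axis) for genes above the floor on both MSC arrays, 1 array a group. Grey points are non-leukocyte genes, orange points leukocyte panel genes, green points labelled non-leukocyte genes, and dashed lines mark 2-fold. Panel genes crowd the upper right, where 57 of the 103 higher members also lie, while Rab15, Bean1, Pdgfb, Ccl2, Slc16a3 and Tspan13 are higher with bFGF at a horizontal value near or below 0.

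Some of the higher genes showed no 2-fold osteoblast excess over embryonic stem cells. Rab15, a small GTPase of endosome recycling, was at 6.44 without and 8.72 with bFGF, with osteoblasts at 5.68 and embryonic stem cells at 6.69. Bean1 was at 6.39 and 8.66, beside 5.98 and 6.35. Advillin (Avil), an actin-binding protein, was at 7.36 and 8.76 in MSC and under 6 in both controls (5.68 and 5.48). These 3 genes were thus above the floor in MSC and highest in MSC with bFGF. The cardiac troponin T gene Tnnt2 was at 7.36 and 8.61, beside 7.06 and 7.04, and Haao, an enzyme of kynurenine breakdown, at 6.48 and 7.92, beside 6.53 and 5.90. A 2-fold osteoblast excess was present, but MSC with bFGF was still the highest of the 4 arrays, for the endoplasmic reticulum protein Sdf2l1 (8.78 and 10.47, against 9.65 and 8.36), the transcription factor Ets2, a target of ERK (8.51 and 10.05, against 9.10 and 8.08), and the vasoconstrictor endothelin, Edn1 (6.44 and 7.72, against 7.07 and 5.92). Tspan13, a tetraspanin, was 1.48 higher with bFGF (6.80 and 8.28) but highest in embryonic stem cells at 9.45.

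Genes lower with bFGF were fewer, and Il33 alone passed 4-fold. Il33, an alarmin cytokine stored in the nucleus of stromal cells, was at 11.28 without and 8.91 with bFGF, 2.38 lower, and at 5.46 and 5.21 in osteoblasts and embryonic stem cells. Both MSC cultures thus held far more Il33 transcript than either control, and the one with bFGF held less of it. The granin Scg2, a protein of secretory granules, was at 8.18 and 6.68 in MSC, against 5.65 and 4.73 in the controls. Sema7a, a membrane-anchored semaphorin, was at 9.19 and 7.76, the latter under both controls (8.58 and 8.64). For 14 of the 20 members 2-fold lower, MSC without bFGF was above both controls, and for 8 MSC with bFGF still was; the former count follows in part from the choice of genes higher without bFGF. Their median level was 8.28 without and 7.08 with bFGF, with medians of 7.04 and 6.58 for the controls.

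Several of the genes lower with bFGF encode signalling proteins. The Wnt ligand Wnt7b was at 8.63 without and 7.59 with bFGF, the Wnt inhibitor Apcdd1 at 8.37 and 7.04, and the cAMP-gated exchange factor Rapgef3 at 8.15 and 7.12. The integrin subunit Itgb8, which helps release latent TGF-beta, was at 8.17 and 6.99, and the orphan receptor Gpr149 at 8.48 and 7.31. All 5 were above both controls without bFGF. Pdgfrb, the receptor for the Pdgfb product, was 1.12 lower with bFGF (7.74 and 6.62), the opposite direction to its ligand, and was far higher in osteoblasts (10.22). Mxra8, a membrane protein of stromal cells, was at 11.54 and 10.64, just short of 2-fold. The trypsin gene Try5 was at 10.17 and 8.91, a value that its near-identical family members could share, and Ermp1, a protease of the endoplasmic reticulum, at 9.21 and 8.16.

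**Figure D3:**
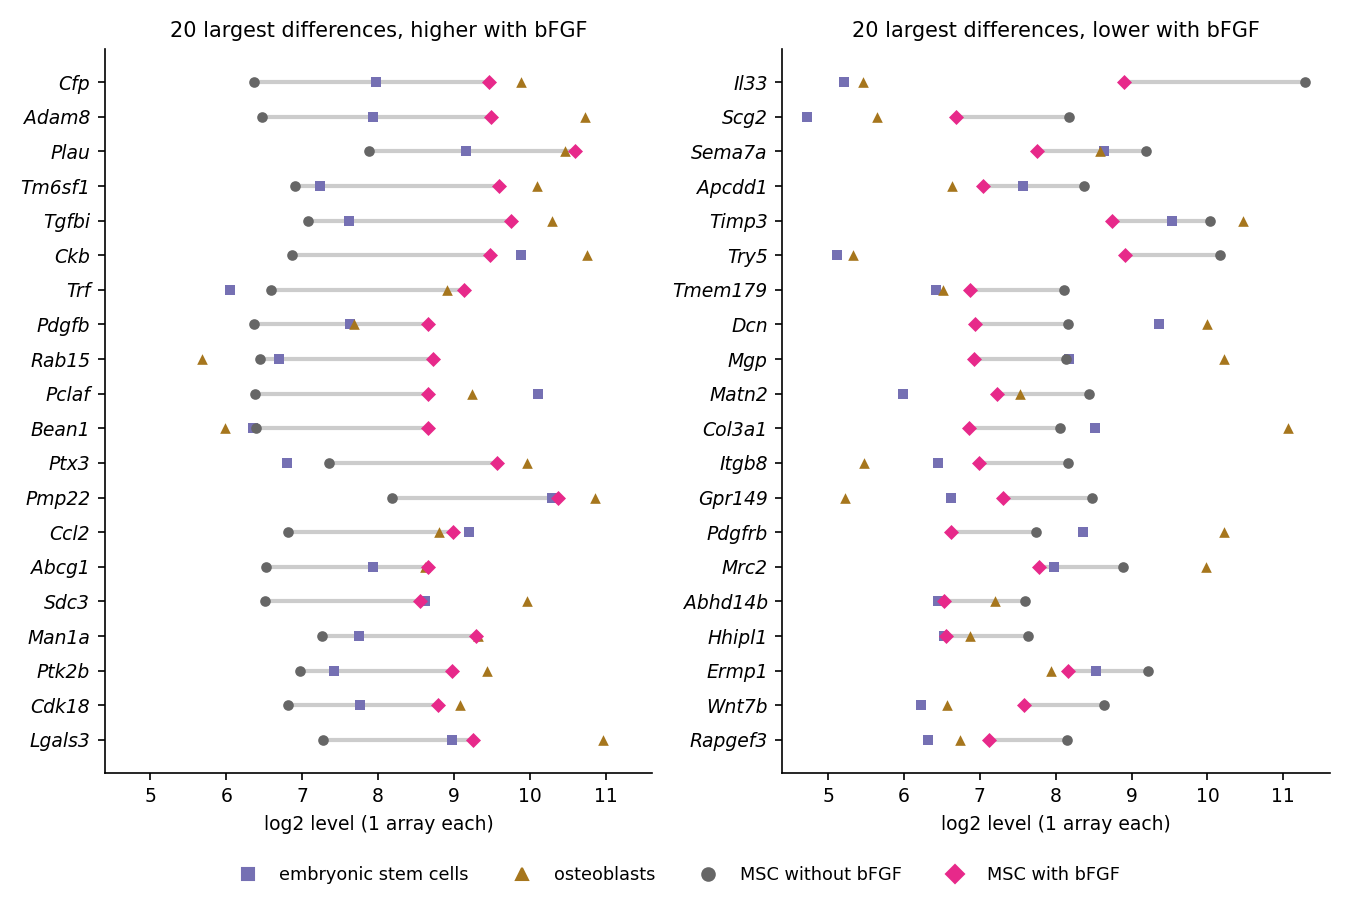
Log2 levels of the 20 non-leukocyte genes with the largest difference higher with bFGF (left) and the 20 lower (right), 1 array per group; a grey bar joins MSC without bFGF (circle) and MSC with bFGF (diamond), and squares and triangles give embryonic stem cells and osteoblasts. On the left the circle is usually the lowest symbol and osteoblasts are highest for 12 of 20 genes; on the right MSC without bFGF is highest for 14 of 20.

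Matrix genes leaned downward with bFGF. Of 18 collagen genes above both floors 2 were above 0, with a median of -0.25 beside -0.01 for all members; Col3a1 was past 2-fold and Col6a3 past 1.5-fold. The fibrillar collagen gene Col3a1 was at 8.05 without and 6.85 with bFGF, with osteoblasts at 11.06 and embryonic stem cells at 8.52. Col6a3, a chain of microfibrillar collagen VI, was at 7.42 and 6.46, 0.97 lower, and its partners Col6a1 and Col6a2 differed by -0.28 and -0.38. The main chains of collagen I, Col1a1 and Col1a2, differed by -0.17 and -0.50. Among 21 matrix glycoproteins and proteoglycans the median was -0.28 with 6 above 0 and 5 at 1.5-fold lower. Decorin (Dcn), a proteoglycan that binds collagen fibrils, was at 8.16 and 6.94 and the mineralisation inhibitor Mgp at 8.14 and 6.92, beside 9.99 and 10.21 in osteoblasts. Versican (Vcan), laminin beta 1 (Lamb1) and fibronectin (Fn1) differed by -0.83, -0.81 and -0.55. In these lists Tgfbi, at 2.68, was the one gene past a fold limit upward.

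Proteins that build, cut or take up matrix differed in both directions. Pcolce, the enhancer of procollagen processing, was at 10.65 without and 9.67 with bFGF, 0.98 lower, and 5 of 19 collagen processing genes were above 0 with a median of -0.13. The collagen uptake receptor Mrc2 was 1.10 lower (8.88 and 7.79) and Matn2, a matrix adaptor, 1.21 lower (8.43 and 7.22). Over 22 proteases and inhibitors 12 were above 0. Timp3, the matrix-bound inhibitor of metalloproteases, was at 10.03 and 8.74, 1.29 lower, the same list in which Plau was 2.71 higher. The urokinase receptor gene Plaur differed by 0.52 (9.87 and 10.39), Adam15 by 0.72, and the gelatinase Mmp2 and Mmp19 by -0.55 and -0.60. Of 27 integrin and focal adhesion genes 13 were above 0, and of 20 actin and contractile genes 12. Of 27 fibroblast and MSC markers the 21 above both floors had a median of -0.28, with Col3a1, Dcn and Pdgfrb past 2-fold lower and 4 genes above 0.

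Of 31 measured FGF pathway genes 19 were above both floors; 8 were above 0, with a median of -0.16. At 1.5-fold Sdc3 was higher and Sdc2, Gpc6 and the ligand Fgf10 were lower. Among ligands, Fgf7 was at 9.11 without and 8.77 with bFGF, Fgf10 at 8.09 and 7.44, and Fgf18 at 6.63 and 6.47. The transcript of Fgf2, the factor that was added as protein, was above the floor only without bFGF, at 6.50 and 6.04. Among receptors, Fgfr1 was at 7.76 and 8.03, Fgfr2 at 6.83 and 6.41 and the decoy-like Fgfrl1 at 8.08 and 8.11, while Fgfr3, Fgfr4 and the klotho co-receptors Kl and Klb were not above both floors. Docking and adaptor proteins lay between -0.39 (Gab1) and 0.27 (Grb2). The 7 syndecans and glypicans spread most: Sdc3 was 2.04 higher (6.50 and 8.55), Sdc4 0.18 higher, and Sdc1, Gpc1, Gpc4, Gpc6 and Sdc2 differed by -0.30 to -0.90. Sdc2, at 9.66 and 8.76, and Sdc3 were thus opposed within the same family. The list median depended on the floor: it was -0.32 over 24 genes with the floor asked of the higher array only and 0.03 over 7 genes at a floor of the 75th percentile.

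Feedback inhibitors and targets of ERK were split. Of 27 genes 25 were above both floors, 16 were above 0, the median was 0.23 and 0 reached 2-fold. At a floor of the 75th percentile the median was 0.05 over 15 genes. The Sprouty genes Spry1, Spry2 and Spry4 differed by 0.05, -0.21 and -0.73, and Spred1, Spred2 and Spred3 by 0.30, 0.18 and 0.30. The ERK phosphatases Dusp4, Dusp5 and Dusp6 differed by -0.08, 0.35 and -0.23, and the ETS factors Etv1, Etv4 and Etv5 by -0.18, 0.32 and -0.34. Most of these are smaller than the spread that holds the central 95% of members. The largest values were those of Phlda1, at 7.87 and 8.80, and the AP-1 subunit Fosl1, at 7.64 and 8.24. Egr1, Egr2 and Egr3, early transcription factors, differed by 0.23, 0.30 and 0.42, Myc by 0.25 and the cyclin gene Ccnd1 by -0.24. The EGF receptor ligand Hbegf was 0.53 lower. Of these, 3 lay at 1.5-fold, Phlda1 and Fosl1 above and Spry4 below.

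Immediate early genes were mostly higher with bFGF. Of 23 above both floors 21 were above 0, 7 were at 1.5-fold higher and 0 lower, with a median of 0.49. The AP-1 subunit Fosb was at 8.20 without and 9.50 with bFGF, the mRNA-destabilising protein Zfp36 at 7.60 and 8.84, the small Maf factor Maff at 8.46 and 9.56 and the MAP kinase phosphatase Dusp1 at 9.93 and 10.89. Maff was above both controls on each MSC array (7.73 and 7.67), and its level was highest with bFGF. Klf4 and Klf10, also early factors, differed by -0.01 and -0.17.

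The promoters of Zfp36 and Maff are shown because both genes passed 2-fold and each holds a motif of signal-driven transcription. The windows run from 250 bases before to 50 after the start of the gene, from RefSeq, build GRCm38.p6, 5′ to 3′ on the gene's strand. Capitals mark the CArG box of serum response factor in Zfp36 (chr7:28379179-28379478, minus strand) and the cAMP response element TGACGTCA in Maff (chr15:79347270-79347569, plus strand; of 3 windows listed for Maff, the one with the motif).
Zfp36: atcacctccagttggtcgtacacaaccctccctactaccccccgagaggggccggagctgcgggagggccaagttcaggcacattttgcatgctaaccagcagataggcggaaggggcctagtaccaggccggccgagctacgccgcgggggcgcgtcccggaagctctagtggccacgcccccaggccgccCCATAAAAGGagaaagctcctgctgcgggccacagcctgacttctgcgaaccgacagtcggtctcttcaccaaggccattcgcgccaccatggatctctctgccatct
Maff: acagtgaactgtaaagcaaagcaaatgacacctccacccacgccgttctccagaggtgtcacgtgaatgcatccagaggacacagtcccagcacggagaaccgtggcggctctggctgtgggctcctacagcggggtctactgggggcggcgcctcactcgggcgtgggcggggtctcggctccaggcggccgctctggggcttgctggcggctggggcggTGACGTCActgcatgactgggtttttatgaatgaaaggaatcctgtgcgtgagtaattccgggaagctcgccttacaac
Both strands were searched. The CArG box was found for 2 of 20 immediate early genes with a promoter in the table, 1.52% of all members and 1.81% of the 27025 genes in the table. The cAMP response element was found for 3 of the 20 (15.0%), 3.87% of members and 2.03% of all genes. A match is a description of the letters and not evidence of a bound site.

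Inflammatory genes outside the leukocyte panel were mostly higher with bFGF. Of 26 above both floors 22 were above 0, 6 were 2-fold or more higher, 1 lower (Il33) and the median was 0.44. Besides Ccl2 and Ptx3 the higher genes were the NF-kB subunit Rel (6.36 and 7.91), the NF-kB regulator Nfkbiz (7.23 and 8.60), the acute phase gene Saa3 (7.09 and 8.28) and the leukocyte adhesion ligand Icam1 (1.05 higher). Nfkbia, which encodes the inhibitor that holds NF-kB in the cytoplasm, was at 8.77 and 9.70, 0.93 higher, and the signalling protease Malt1 at 6.35 and 7.99. Of 24 interferon response genes 22 were above 0 and 10 at 1.5-fold, with a median of 0.48; the 2 past 2-fold were the regulator Irf7 (6.90 and 8.53) and Oasl1 (6.39 and 7.41). For Oasl1 both controls (6.54 and 6.62) lay between the MSC arrays. The antigen presentation subunit B2m differed by -0.12. Without genes of a 2-fold osteoblast excess over embryonic stem cells, 9 interferon genes were left, with a median of 0.83. The macrophage markers were higher by a median of 2.76 on the same array, and their part in these lists was not tested.

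Promoters are given of Il33, the inflammatory gene past 2-fold lower, and of Nfkbia, which was 0.93 higher. Nfkbia was an example chosen after its values were seen and is not among the inflammatory genes past 2-fold higher. Nfkbia (chr12:55492598-55492897, minus strand) carries in capitals an NF-kB motif and the letters TATAAA, both read on the opposite strand. The NF-kB motif starts at -29 from the gene start and the letters TATAAA at 19, after the start. Il33 (chr19:29924863-29925162, plus strand; 1 of 2 windows listed, the one with more of the motifs) carries a TATA box, TATAAA, and a CCAAT box on the opposite strand.
Nfkbia: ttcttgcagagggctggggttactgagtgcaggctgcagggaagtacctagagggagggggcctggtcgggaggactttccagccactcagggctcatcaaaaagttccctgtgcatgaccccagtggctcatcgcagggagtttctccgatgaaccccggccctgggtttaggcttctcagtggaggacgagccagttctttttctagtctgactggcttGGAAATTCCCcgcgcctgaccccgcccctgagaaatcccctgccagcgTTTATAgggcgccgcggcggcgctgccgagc
Il33: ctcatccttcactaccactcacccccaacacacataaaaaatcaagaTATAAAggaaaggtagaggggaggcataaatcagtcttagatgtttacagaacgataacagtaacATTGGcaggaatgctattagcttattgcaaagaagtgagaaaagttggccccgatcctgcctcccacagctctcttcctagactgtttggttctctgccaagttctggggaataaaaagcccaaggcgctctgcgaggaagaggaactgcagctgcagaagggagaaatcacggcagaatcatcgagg
The NF-kB motif was in the windows of 3 of 22 inflammatory genes (13.6%), 0.430% of all members and 0.466% of all genes in the table. It was in 2 of 271 promoters of members 1.5-fold higher and in 0 of 142 of those lower. The letters TATAAA, anywhere in the window on either strand, were in 12.2% of promoters of members 1.5-fold higher and 14.1% of those lower. They were in 7.86% of all members and 15.7% of all genes in the table. The ETS motif CCGGAAGT was in 1.85% of the higher, 0 of 142 of the lower, 10.4% of all members and 4.31% of all genes.

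Cell cycle genes above both floors differed mostly by less than 1.5-fold, but the floor left out most mitosis genes. Of 33 DNA replication genes above both floors 25 were above 0, 6 were at 1.5-fold higher and 1 lower, with a median of 0.21. The helicase subunits Mcm3 and Mcm5, which unwind DNA at origins, were at 6.67 and 7.86 and at 6.56 and 7.47. The ribonucleotide reductase subunit Rrm2 was 0.93 higher (6.50 and 7.44) and the primase Prim1 0.76. All 4 were higher still on the embryonic stem cell array, with Mcm3 at 9.64 and Rrm2 at 9.61. The licensing factor Cdt1 was lower, at 10.04 without and 9.44 with bFGF, above both controls on each MSC array. The histone chaperone Asf1b was 1.48 higher (6.49 and 7.97) and the kinase Cdk6 1.02 (8.13 and 9.15). Of 35 mitosis genes measured 21 stood above the floor with bFGF and 6 without. Of all 35, 34 were above 0 and the median was 0.87. The 6 above both floors had a median of 0.20, with Cdk1 at 0.69, Aurkb at 0.58 and Cdc20 at -0.10. Among CDK inhibitors and p53 targets 11 of 21 were above 0; Cdkn2b, an inhibitor of CDK4 and CDK6, was at 10.52 without and 9.72 with bFGF and Pmaip1, a cell death gene, at 6.64 and 7.53.

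The promoters of Mcm3 (chr1:20820263-20820562, minus strand) and Mcm5 (chr8:75109259-75109558, plus strand) hold the motifs known from cell cycle genes and are shown for that reason. Capitals mark E2F motifs (TTTCGCGC or TTTGGCGC), CCAAT boxes and, in Mcm5, a cAMP response element, each on either strand; in Mcm5 a pair of E2F matches on opposite strands overlap.
Mcm3: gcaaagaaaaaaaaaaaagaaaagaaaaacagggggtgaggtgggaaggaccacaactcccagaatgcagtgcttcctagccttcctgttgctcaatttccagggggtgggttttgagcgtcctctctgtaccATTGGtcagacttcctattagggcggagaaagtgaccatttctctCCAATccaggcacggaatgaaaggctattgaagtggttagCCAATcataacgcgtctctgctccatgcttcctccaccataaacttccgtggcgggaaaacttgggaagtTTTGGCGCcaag
Mcm5: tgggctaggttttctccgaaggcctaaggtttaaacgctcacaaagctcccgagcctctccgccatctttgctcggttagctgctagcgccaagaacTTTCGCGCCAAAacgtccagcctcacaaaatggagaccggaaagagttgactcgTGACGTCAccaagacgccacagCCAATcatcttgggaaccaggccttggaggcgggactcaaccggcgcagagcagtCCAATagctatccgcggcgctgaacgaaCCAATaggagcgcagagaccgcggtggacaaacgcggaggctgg
An E2F motif was in the window of 7 of 28 replication genes (25.0%), 3.32% of members 1.5-fold higher, 1.41% of those lower, 2.03% of all members and 0.929% of all genes. The CCAAT box, a short and common motif, was in 17 of the 28 (60.7%) and in 42.7% of all members.

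Lipid synthesis and sugar use showed a few large values within small list shifts. Of 29 sterol and fatty acid synthesis genes 23 were above 0, 6 were at 1.5-fold higher and 0 lower, with a median of 0.33. The desaturase Scd2 was at 9.49 without and 10.71 with bFGF, 1.22 higher, and the fatty acid synthase Fasn at 8.37 and 9.25. The sterol pathway members Insig1, Ebp and Nsdhl were higher by 0.80, 0.79 and 0.70. Their promoters held CCAAT boxes in 19 of 23 genes (82.6%) and the SREBP motif TCACNCCAC in 1. Of 27 glycolysis and hypoxia genes 20 were above 0 and 3 were past 2-fold with a median of 0.15: the lactate exporter Slc16a3 (6.83 and 8.71), the phosphofructokinase Pfkp (7.14 and 8.74) and the pyruvate dehydrogenase kinase Pdk1 (6.49 and 7.70). For all 3 MSC without bFGF was the lowest of the 4 arrays, and the glucose transporter Slc2a1 differed by -0.09. Of 37 lysosome and autophagy genes 18 were above 0, yet the acid lipase Lipa (1.66), the mannosidase Man2b1 (1.42) and the glucuronidase Gusb (1.17) were past 2-fold; each was highest in osteoblasts.

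TGF-beta, Wnt, guidance and lineage genes included opposed values. Of 27 TGF-beta and BMP genes 14 were above 0. The inhibitors of differentiation Id1, Id2 and Id3 were all higher, by 0.89, 1.75 and 0.49, and Tgfb1 by 0.87 (7.91 and 8.79), while the latency protein Ltbp1 and the BMP antagonist Grem1 differed by -0.90 and -0.76. Of 19 Wnt genes 4 were above 0 (median -0.18); the antagonist Dkk3 and the receptor Fzd7 differed by -0.69 and -0.70. Of 26 guidance genes 8 were above 0; besides Sema7a, the ligands Slit2 (9.28 and 8.44) and Sema3a (10.70 and 9.91) were lower, and the receptor Nrp2 (0.85) and Sema4c (0.78) higher. Of 41 developmental transcription factors 13 were above 0 with a median of -0.19: Mef2c, used in muscle and in myeloid cells, was 1.22 higher, and the mesenchymal factors Prrx1, Foxc1, Foxc2 and Tbx3 differed by -0.77, -0.73, -0.61 and -0.65. The cartilage regulator Sox9 was at 8.83 without and 8.10 with bFGF, and 1 of 9 chondrocyte genes was above 0. Of 13 osteoblast markers Col1a1 alone was above both floors. The retinal reductase Dhrs3 was 1.74 higher (7.59 and 9.33) and the retinoic acid binder Crabp1 0.79 lower (9.21 and 8.41).

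**Figure D4:**
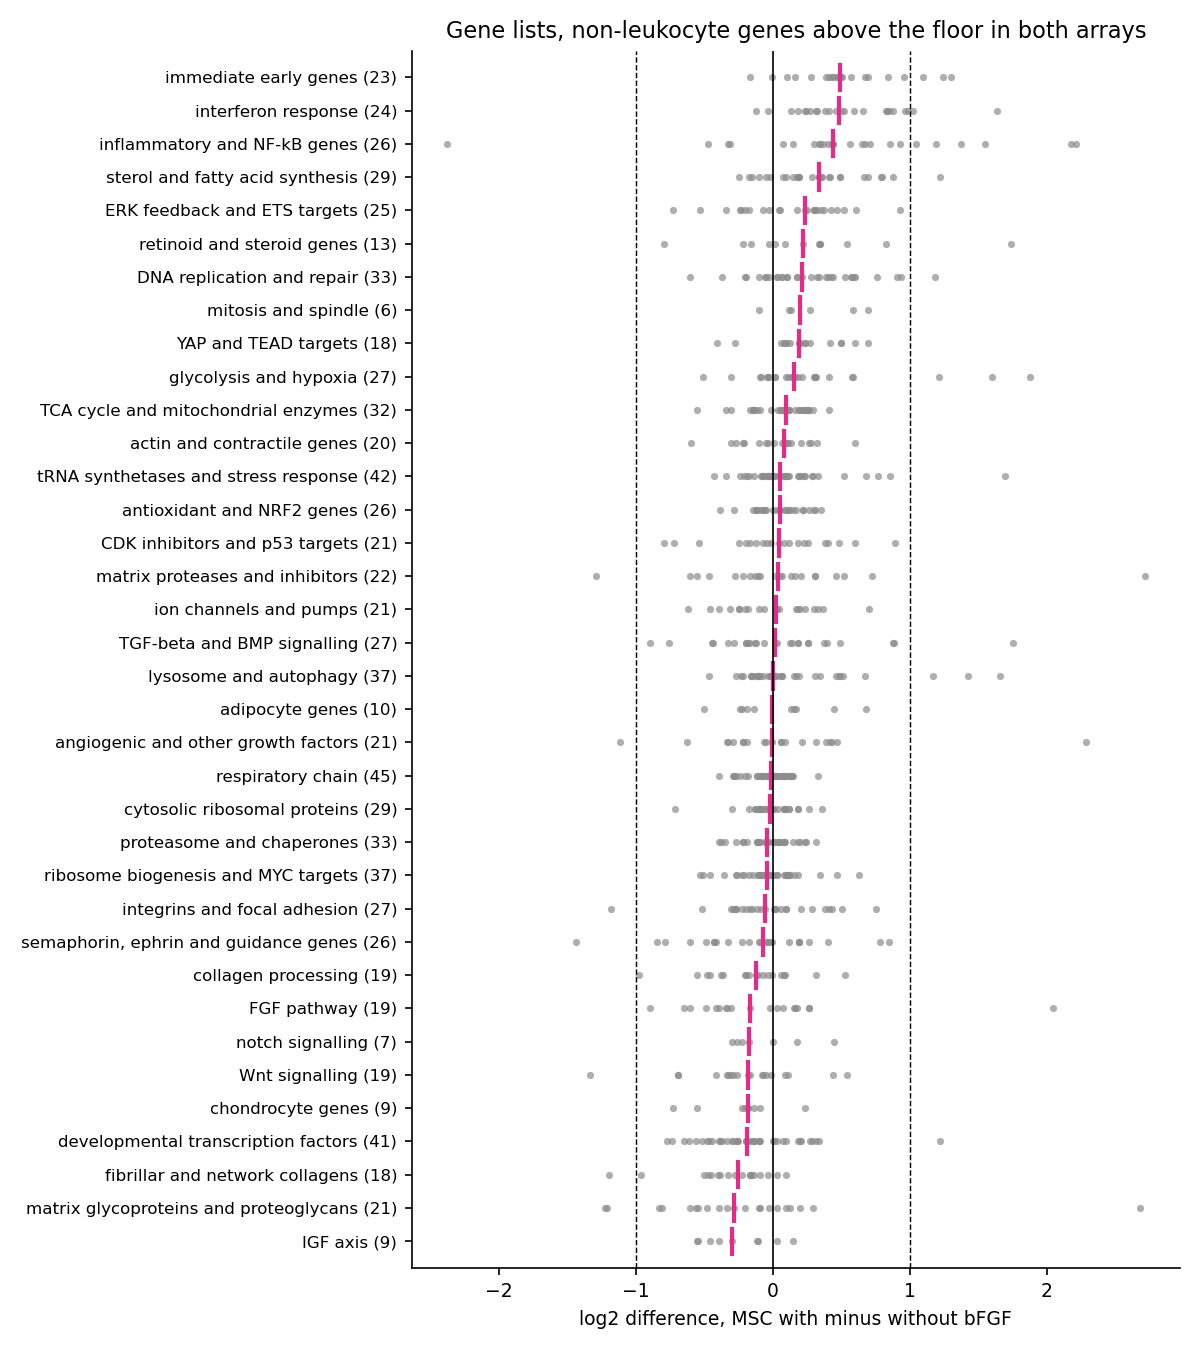
Log2 difference of MSC with minus without bFGF for each non-leukocyte gene above the floor on both arrays (grey points), by gene list, with the number of such genes in brackets; magenta bars are list medians and dashed lines mark 2-fold. Immediate early genes (0.49), interferon response (0.48) and inflammatory genes (0.44) have the highest medians and the IGF axis (-0.30), matrix glycoproteins (-0.28) and collagens (-0.25) the lowest. The order depends on the floor. The IGF median rests on 9 genes and is -0.11 over all 17 measured, and the mitosis median (0.20) rests on 6 genes and is 0.87 over all 35 measured.

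Housekeeping lists were centred on 0 and narrow. The respiratory chain (45 genes, median -0.01), cytosolic ribosomal proteins (29, -0.02), proteasome and chaperones (33, -0.04) and antioxidant genes (26, 0.05) had 0 members past 2-fold in either direction, and of these 4 lists only the ribosomal one had a gene past 1.5-fold, Rplp2 at -0.72. The TCA cycle list (32, 0.10) and ribosome biogenesis (37, -0.04) also had 0 members past 2-fold. Of 42 tRNA synthetase and stress response genes 1 passed it, Sdf2l1, with Creld2 and Edem1, also of the endoplasmic reticulum, at 0.85 and 0.77. The 36 lists together covered 845 members, and 27 of the 103 higher and 9 of the 20 lower were in at least 1 of them.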

How the data were processed

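RNA of 4 cultures, 1 array each, was labelled from 100 ng of total RNA and 15 µg of cRNA was hybridised, per the labels' protocols. The deposited values are log2 levels per probe set, which the authors made with Affymetrix Expression Console and RMA, per the submitters' processing notes; their range of 1.40 to 14.28 is the basis for calling them log2. Software versions and a genome build were not given in the sources used here. RMA makes array distributions alike, so a general shift would not show, and differences near the floor are compressed. Precision is limited by how few arrays there are.

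Of 35556 probe sets 21789 had 1 gene symbol in the platform annotation, 1621 several and 12146 none; only the first were named. A gene took its probe set with the highest mean over 4 arrays. Of 710 leukocyte panel symbols 623 were measured. Differences were counted at 2-fold and 1.5-fold without a test. Lists are described by counts and medians; genes in a list can share probes or regulation and are not replicates.

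The text names the 20 largest differences higher with bFGF among members and most of the 20 lower. Of the 20 lower, Tmem179 (-1.24), Abhd14b (-1.08) and Hhipl1 (-1.07) are not described further. Some lists, among them the IGF axis and notch, are described without named genes. Also named are up to 4 genes each way from many of the lists, and genes of the FGF pathway, ERK and cell type marker lists. Other genes, among them Rab15's companions Avil, Tnnt2 and Haao, Ets2, Edn1, Tspan13, Malt1, Asf1b, Cdk6, Mxra8 and the pluripotency genes, were chosen after their values were seen. Members, panel and lists were all chosen with earlier results of these data known. Promoters for 7439 of the 9172 members came from RefSeq (GRCm38.p6), matched by symbol. Counting was tested on simulated data. Alternatives changed the threshold, the floor, the choice of probe set, the scaling, the leukocyte exclusion and the list members. Tables were computed with pandas 2.3.3 and numpy 2.4.6 under Python 3.11.15, loess with statsmodels 0.14.6, and figures drawn with matplotlib 3.10.9.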

Additional observations from a re-analysis of the deposited data

How the results depend on the processing

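With 1 array a group, precision is limited by the number of arrays and, near the floor, by background, and no replicate could be left out. No paired analysis was possible because each group has a single array and the comparison has no test. Counts depended on the floor and the threshold. Of 103 genes 2-fold higher, 17 were left at a floor of the 75th percentile; there were 253 with the floor asked of the higher array only, 333 with no floor, 162 with leukocyte genes kept and 46 without genes of a 2-fold osteoblast excess over embryonic stem cells. The 20 lower became 4, 49 and 185 under the first 3 of these. Thresholds of 1.5-fold and 4-fold gave 336 and 18 higher and 182 and 1 lower. At 1.5-fold the higher count was 82, 571 and 941 under those 3 floors and 197 without the osteoblast genes, and the lower count 54, 348 and 1438. With no floor the lower genes at 1.5-fold thus outnumbered the higher. The other alternatives kept each of these counts within 1.5 times. They were 3 scalings, 2 choices of probe set, a floor at the median of all probe sets and omitting the inflammatory and interferon lists. The balance of higher and lower genes was less stable. Repeating the quantile normalization left the 1.5-fold higher and lower counts nearly equal, whereas at 2-fold it gave 93 higher and 24 lower. Of 502 list medians recomputed over 36 lists, 24 moved by more than 0.154, the SD between probe sets of a gene. With the floor asked of the higher array only they were -0.32 for the FGF pathway, -0.11 for the IGF axis, 0.00317 for notch, 0.61 for inflammatory genes and 0.91 for mitosis. With no floor, and equally over all measured genes, they were -0.11 for the IGF axis, 0.00317 for notch, 0.87 for mitosis, 0.15 for adipocyte genes and -0.0729 for retinoid genes. At the 75th percentile they were 0.0298 for the FGF pathway, 0.0511 for ERK feedback, -0.11 for the IGF axis and -0.0294 for retinoid genes. With a floor at the median of all probe sets they were -0.32 for the FGF pathway, 0.0703 for notch and 0.58 for mitosis. Without the osteoblast genes they were -0.11 for the IGF axis and 0.83 for the interferon list. The list medians of matrix proteases, TGF-beta, CDK inhibitors, lysosome and ion channels lay so near 0 that a scaling turned their sign. Of 1945 values for named genes 9 moved beyond 0.154, each when probe sets of a gene were averaged, and 0 of those past 1.5-fold changed sign; among genes past 2-fold, averaging gave 2.52 for Pclaf, 2.33 for Tpd52 and 0.61 for Dab2, which is 1.76 otherwise and so falls under 2-fold. Why values moved was not tested, except that a floor alters which genes enter.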

Other observations

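Some genes stood high in both MSC cultures whatever the medium and low in both controls. The calcium-activated potassium channel Kcnma1 was at 12.85 without and 13.18 with bFGF, with osteoblasts at 6.05 and embryonic stem cells at 3.93; averaging its probe sets gave a difference of -0.03 in place of 0.33. The secreted carbonic anhydrase Car6 was at 11.13 and 10.78, beside 5.40 and 4.03, and the ATP-gated channel P2rx3 at 10.58 and 10.33, beside 4.92 and 5.30. These genes were chosen after their values were seen.

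Genes above the floor on a single MSC array are not among the members. Outside the leukocyte panel 150 such genes were 2-fold or more higher and above the floor only with bFGF, and 29 were lower and above it only without. They entered through the array in which they are high, so a large difference is partly built in. Together with the members, 253 were higher and 49 lower of 10188 genes with the floor asked of the higher array only. Among the 9172 members the counts were 103 and 20. Of the members 284 lay within 0.1 of a floor, and 292 further genes just under one. Among 4016 probe sets above both floors that had no single gene symbol, 42 were 2-fold or more higher and 11 lower; 11 of the higher had several symbols.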
